A study of Homo sapiens with 6 samples.

Results

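S100 proteins and annexins were followed in A549, a human epithelial cell line established from a lung adenocarcinoma, after knockdown of METTL3, the catalytic subunit of the m6A writer complex. The 33 genes were the rows of the count table whose symbol is S100A with a number, optionally followed by A or B, ANXA with a number, S100B, S100P, S100G or S100PBP, out of 57781 rows in all. They comprised 17 S100A genes that lie together on chromosome 1 at band 1q21, 3 S100 genes elsewhere (S100B, S100P and S100G), 12 annexins, and S100PBP, which encodes a binding protein of S100P and is no S100 protein itself. RNA sequencing was done on 3 vector-control libraries, labelled wild type, and 3 shMETTL3 libraries, in which METTL3 was knocked down with short hairpin RNA expressed from a plasmid. All cells were grown in the same medium. The labels do not say whether the replicates came from separate cultures, nor whether the shMETTL3 libraries share 1 hairpin, so the p-values below measure only the spread between these libraries.

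S100 proteins are small calcium sensors built from a pair of EF hands, calcium-binding loops between helices. They form dimers and, on binding calcium, expose a surface that grips target proteins. Some are secreted and act on receptors of inflammation. Annexins are larger proteins that bind acidic phospholipids in a calcium-dependent way and serve in membrane repair, vesicle traffic and the cortical cytoskeleton. Both families meet directly, since S100A10 binds ANXA2, and S100A11 binds ANXA1, to form complexes at the membrane.

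METTL3 methylates adenosines within a short consensus of which GGACT is a common form, so these letters were searched on the sense strand of the canonical transcripts (GENCODE 44 mapped to GRCh37, the build that the authors used as hg19). Of the matches, 8 are given here. The first 5 hold a run of letters that recurs across S100 genes, and the others come from S100A14, its neighbour S100A16 and ANXA1, the most abundant annexin per length in the vector libraries. Each is 25 bases, 5′ to 3′, with GGACT in capitals.
S100A1: acggggaggtGGACTtccaggagta (chr1:153604232-153604256, plus strand, coding part, exon 3)
S100A2: accagcaggtGGACTtccaggagta (chr1:153533985-153534009, minus strand, coding part, exon 3)
S100A3: actgcgaggtGGACTttgtggagta (chr1:153520240-153520264, minus strand, coding part, exon 3)
S100A4: acaacgaggtGGACTtccaagagta (chr1:153516317-153516341, minus strand, coding part, exon 3)
S100P: atgcccaggtGGACTtcagtgagtt (chr4:6698678-6698702, plus strand, coding part, exon 2)
S100A14: gaggctcaggGGACTggttgggcca (chr1:153587136-153587160, minus strand, 3′UTR, exon 4)
S100A16: gcactttcagGGACTtccctccagc (chr1:153579504-153579528, minus strand, 3′UTR, exon 3)
ANXA1: accgatctgaGGACTttggtgtgaa (chr9:75778396-75778420, plus strand, coding part, exon 8)
The first 5 stretches share the letters GTGGACTT, in each case in the coding part of the last exon. This run was noticed in the sequences and then counted. It was found in 5 of 19 protein-coding S100 genes, 0 annexins and 7.88% of 19396 canonical protein-coding transcripts.

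GGACT itself was found in 9 of the 16 protein-coding genes of the 1q21 S100A cluster and in 9 of 12 annexins, against 88.3% of all protein-coding rows. S100A transcripts are short, with a median of 568 bases in 3 exons, against 1596 bases in 13 exons for annexins and 2915 bases in 8 exons over all protein-coding rows. Per length, the letters stood at 1.28 per kb in the S100A transcripts, 1.18 per kb in annexins and 0.976 per kb overall. A match of letters is not a methylated site, and m6A was not measured in these libraries.

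METTL3 itself was at 49.8 ± 0.675 CPM with the vector and at 19.3 ± 0.525 CPM with the hairpin (SD, n = 3), where CPM is the read count scaled to library size with the TMM factors of edgeR. This was 38.8% of the control level, a log2 fold change of -1.36 (standard error 0.067; adjusted p = 4.57e-16, edgeR's quasi-likelihood fit with Benjamini-Hochberg adjustment, used throughout). No knockdown library reached any control library. An exact permutation test, two-sided, returned p = 0.1, which is as low as 3 against 3 can go. Library totals ran from 14931426 to 19108928 counts, so that 3 counts, taken as the floor for detection, correspond to 0.149 to 0.189 CPM. These limits cover counting error only. All 5 epithelial markers checked were detected and all were lower in the shMETTL3 libraries. Their summed level ran from 8968 to 9578 CPM in the vector and from 3922 to 4317 CPM in the shMETTL3 libraries, and EPCAM, an epithelial adhesion protein, changed by -2.73 on the log2 scale (adjusted p = 7.8e-23, edgeR). Among 6 leukocyte markers, PTPRC, which defines these cells, had at most 1 count in any library and CD3E had 0. The summed level of the 6 ran from 0.779 to 1.47 CPM in vector libraries. In shMETTL3 libraries it ran from 7.27 to 8.43 CPM, mostly from CD14. The 6 fibroblast markers summed to 6.45 to 9.85 CPM and 14.3 to 14.7 CPM. The part of these shifts in the results below was not tested. In bulk RNA, fewer cells with a transcript and less of it per cell cannot be told apart.

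Of the 33 genes, 25 passed edgeR's filter on low counts and were tested with all 15125 genes that passed. S100A12, S100A15A, S100A7A, S100B and S100G had 0 counts in all 6 libraries, which allows up to 3 counts in each, and S100A1, S100A7 and ANXA8 had too few. S100A15A is annotated as a pseudogene. Per kilobase of canonical transcript, the most abundant in the vector libraries were ANXA1, at 2380 ± 225 CPM per kb (SD, n = 3), S100A6, at 1476 ± 185, ANXA2, at 1267 ± 90.9, and S100A10, at 846 ± 67.1. S100A6 and ANXA2 were separated by no more than about the sum of their spreads. In the shMETTL3 libraries S100A6 ranked first, at 1130 ± 65.8 CPM per kb, with ANXA2 at 868 ± 37.1 and ANXA1 at 851 ± 18.4. The levels of ANXA2 and ANXA1 there differed by less than their spread. This order depends on the length used, since ANXA2 ranked 7 rather than 3 in vector libraries when all annotated exons were counted.

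**Figure D1:**
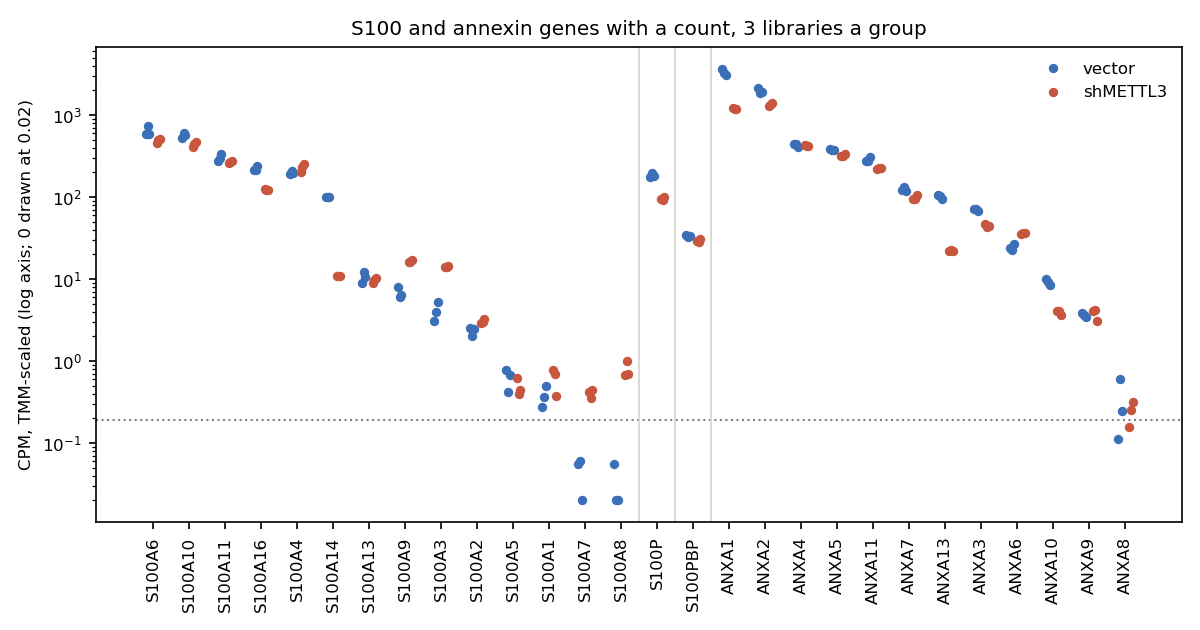
TMM-scaled CPM (log axis) of the 28 genes with any count, with 1 point a library for the 3 vector and 3 shMETTL3 libraries; values of 0 are drawn at 0.02 and the dotted line marks 3 counts in the library with the highest floor, 0.189 CPM. S100A14 and ANXA13 fell clear of their vector points, while S100A3, S100A8 and S100A9 rose clear of theirs.

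Of the 25 tested genes, 20 differed between the groups at an adjusted p under 0.05, where 66.6% of all tested genes did. In the shMETTL3 libraries 5 of them were higher and 15 lower, against 33.7% of all genes higher and 32.9% lower. The median log2 fold change was -0.34 over the 25 genes and 0.0022 over all tested genes. S100A8 passed the filter only through the shMETTL3 libraries and had to differ. Without TMM factors, a change of scaling that raised the median over all genes by 0.17, 7 genes were higher and 12 lower. In 19 of the 25 the libraries of one group all lay beyond those of the other, against 69.4% of all tested genes. A log2 fold change of at least 1 in size was reached by 7 genes, against 17.6% of all tested genes. Of these 3 were higher and 4 lower, against 10.2% and 7.42% of all genes.

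**Figure D2:**
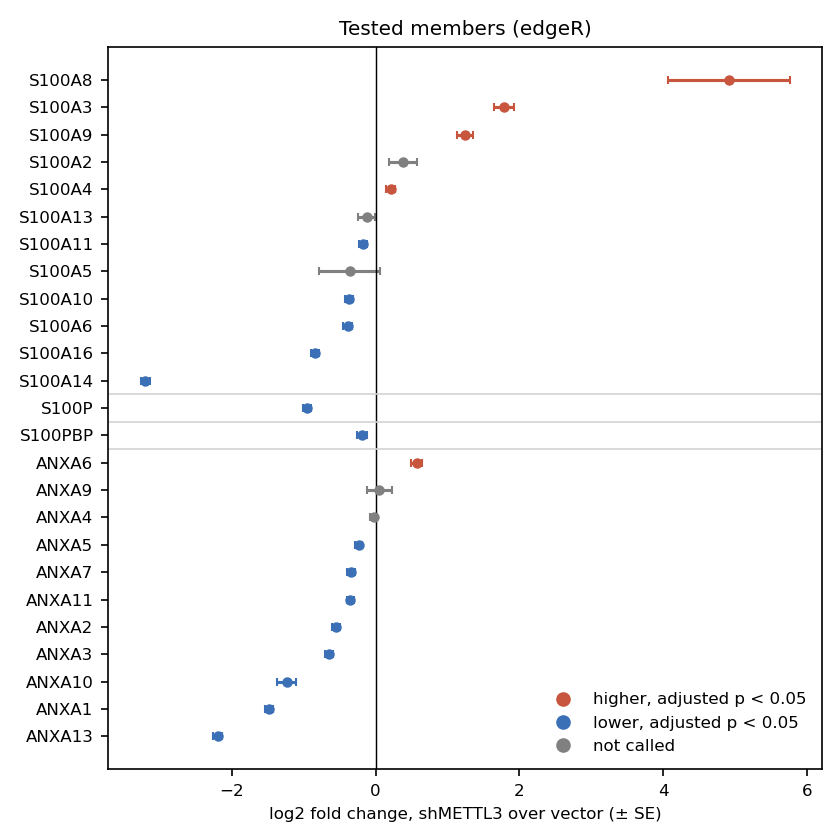
Log2 fold change of shMETTL3 over vector (horizontal axis, points with standard error from edgeR) for the 25 tested genes, grouped as S100A genes on 1q21, S100P, S100PBP and annexins; red and blue mark genes higher and lower at an adjusted p under 0.05. Annexins ran from -2.19 to 0.57. S100A14 lies lowest at -3.20, and the fitted point of S100A8, at 4.91, rests on vector libraries at or near 0 and is no measure of size.

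The annexins were mostly lower. Of 11 tested, 8 were lower and 1 was higher, with a median log2 fold change of -0.35, where 32.9% of all tested genes were lower and 33.7% higher. The 1q21 S100A genes were split, with 5 lower and 4 higher of 12 tested and a median of -0.15, which did not move with S100A8 set at its lower bound. The sign of that median depended on the processing. It was 0.028 with scaling by library size alone, beside 0.18 over all genes. With offsets for GC content and length it was 0.017, beside -0.070 over all genes. Without the filter it was 0.030 and with DESeq2 0.037, both over 14 S100A genes, since S100A1 and S100A7 were then included. Library size alone and the offsets each gave 4 lower and 5 higher S100A genes. For the annexins library size alone gave 7 lower and 2 higher, with a median of -0.18, where 3512 of all 15125 tested genes were lower and 6745 higher. Of the S100 genes elsewhere only S100P was tested, and it was lower. The difference between the S100A cluster and the other genes was not tested.

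Together the 33 genes took 0.796% to 0.893% of all counts in the vector libraries and 0.569% to 0.595% in the shMETTL3 libraries. Annexins made up most of this difference. Their summed level was 6734 ± 457 CPM (SD, n = 3) in vector and 3721 ± 48.1 CPM in shMETTL3 libraries, and that of the 17 S100A genes 2056 ± 136 and 1608 ± 89.4 CPM. ANXA1 alone gave 48.1% to 50.8% of the annexin counts in vector and 31.3% to 33.3% in shMETTL3 libraries.

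**Figure D3:**
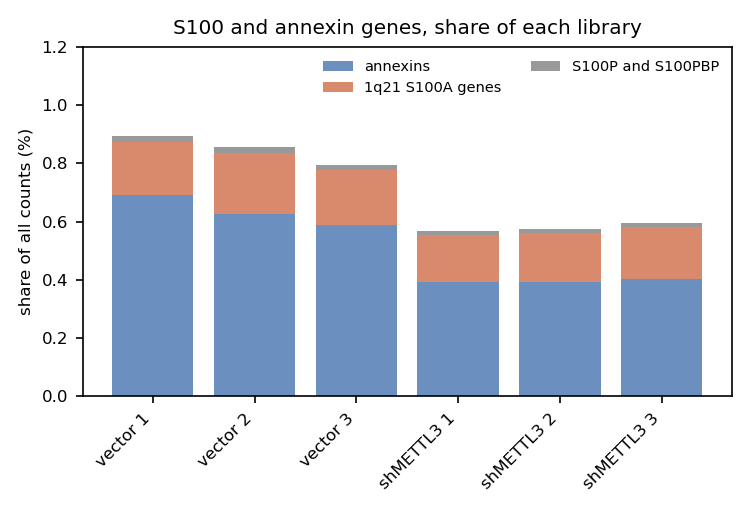
Share of all counts (percent) taken in each of the 6 libraries by annexins, by the S100A genes on 1q21, and by S100P with S100PBP, as stacked bars from 0. The whole bar stood at 0.796% to 0.893% in vector and 0.569% to 0.595% in shMETTL3 libraries.

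Among the S100A genes of epithelia, S100A14 showed the lowest log2 fold change of all 25 genes. S100A14 encodes an S100 protein with poor calcium binding that is found in epithelial cells. It had 1822, 1659 and 1624 counts in vector replicates 1, 2 and 3 and 210, 218 and 174 counts in shMETTL3 replicates 1, 2 and 3. Every shMETTL3 library was far below every vector library. After scaling it fell from 99.98 ± 1.21 to 10.9 ± 0.049 CPM (SD, n = 3), to 10.9% of the control level (log2 fold change -3.20, standard error 0.067, adjusted p = 3.58e-24, edgeR). Its neighbour S100A16, the next gene on the same strand and a widely expressed S100 protein, fell less, from 222 ± 16.5 to 124 ± 0.802 CPM (log2 fold change -0.84, adjusted p = 1.82e-13, edgeR). The count of S100A14 was 0.412 to 0.477 times that of S100A16 in vector libraries and 0.0872 to 0.0888 times in shMETTL3 libraries. S100A13, on the other side of S100A14 and linked to the export of growth factors without a signal peptide, was not called, at -0.12 (standard error 0.12, adjusted p = 0.363, edgeR). Exons of S100A13 overlap those of S100A1 on the opposite strand, so without a known strand setting, which is not given in the sources used here, reads of these genes may not be separable. S100A6 and ANXA7 overlap noncoding genes on the opposite strand by 37 and 105 bases.

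S100A8 and S100A9 form calprotectin, a secreted complex of myeloid cells and of stressed epithelia. S100A9 had 142, 102 and 105 counts in vector replicates 1, 2 and 3 and 309, 320 and 268 counts in shMETTL3 replicates 1, 2 and 3, without overlap. It rose 2.39-fold, from 6.81 ± 0.960 to 16.3 ± 0.519 CPM (log2 fold change 1.25 with a standard error of 0.11, adjusted p = 9.35e-11, edgeR). S100A8 had 1, 0 and 0 counts in vector and 13, 20 and 11 counts in shMETTL3 libraries, at least 4.45-fold higher against a floor of 3 counts in each library. Its test is not given, since the filter let it in only through the group where it was high. Its counts were only 4.1% to 6.25% of those of S100A9 in the shMETTL3 libraries, so that S100A9 transcripts far outnumbered S100A8 transcripts there. S100A7, the psoriasin of inflamed skin, was not tested and had 1, 1 and 0 counts in vector and 8, 7 and 7 counts in shMETTL3 libraries, at least 2.27-fold higher against the same floor. S100A12, another S100 protein of neutrophils, had no count. Reads of S100A7 and its close copy S100A7A may not be separable.

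S100A3, a cysteine-rich protein of the hair cuticle, had 56, 66 and 85 counts in vector replicates 1, 2 and 3 and 270, 280 and 226 counts in shMETTL3 replicates 1, 2 and 3. All 3 shMETTL3 libraries were above the vector libraries, and the level rose 3.43-fold, from 4.09 ± 1.05 to 14.04 ± 0.150 CPM (log2 fold change 1.79, standard error 0.14, adjusted p = 5.19e-12, edgeR). S100A3 lies within the span of S100A4 on the same strand. S100A4, a partner of non-muscle myosin known for its part in cell motility and metastasis, had 3397, 3514 and 3169 counts in vector and 3891, 4689 and 3999 counts in shMETTL3 libraries. After scaling its groups overlapped. S100A4 rose by 0.21 on the log2 scale (standard error 0.063, adjusted p = 0.00472, edgeR), and without shMETTL3 replicate 3 it was 0.14 and the call was lost (adjusted p = 0.0815). Counts of S100A3 were 1.65% to 2.68% of those of S100A4 in vector and 5.65% to 6.94% in shMETTL3 libraries. S100A2, a nuclear S100 protein of basal epithelia, stood at 2.33 ± 0.258 and 3.05 ± 0.195 CPM and was not called (log2 fold change 0.38, adjusted p = 0.0841, edgeR), but it was called with scaling by library size alone, at 0.56, and with the GC and length offsets, at 0.43. S100A5, at 0.624 ± 0.185 and 0.486 ± 0.118 CPM, was not called either (adjusted p = 0.465, edgeR).

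S100A6 and S100A11 are both abundant and widely expressed. S100A6, known as calcyclin, had 10685, 12268 and 9703 counts in vector and 8874, 9977 and 8185 counts in shMETTL3 libraries, and its scaled levels did not overlap. It was lower by a log2 fold change of -0.39 (standard error 0.065, adjusted p = 8.05e-06, edgeR), at 76.5% of the vector level. S100A11, also called calgizzarin, had 4941, 5006 and 5502 counts in vector and 5082, 5425 and 4396 counts in shMETTL3 libraries. Its scaled levels overlapped, with a log2 fold change of -0.17 (standard error 0.058, adjusted p = 0.0124, edgeR). The call was lost without vector replicate 3, at -0.095, and without shMETTL3 replicate 1, at -0.15. It was also lost with the GC and length offsets, at -0.020, and with scaling by library size alone, at 0.0057.

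The S100A10 and ANXA2 pair, whose complex recruits plasminogen at the cell surface, was lower in both parts. S100A10 had 9335, 10183 and 9381 counts in vector and 7928, 8873 and 7413 counts in shMETTL3 libraries, a log2 fold change of -0.37 (standard error 0.058, adjusted p = 3.02e-06, edgeR). ANXA2 had 38307, 31414 and 30984 counts in vector and 24789, 27652 and 22036 counts in shMETTL3 libraries, a log2 fold change of -0.55 (standard error 0.054, adjusted p = 1.19e-09, edgeR). Neither gene overlapped between groups after scaling. Per length, the ratio of S100A10 to ANXA2 was 0.564 to 0.751 in vector and 0.741 to 0.779 in shMETTL3 libraries, and these ranges overlapped. ANXA2P2, a processed copy of ANXA2, held 3.23% to 4.12% as many counts as ANXA2, and reads of the copies may have been split between them.

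S100P, on chromosome 4, is a secreted ligand of the receptor AGER and is raised in several carcinomas. It fell from 184 ± 12.6 to 95.4 ± 4.39 CPM (SD, n = 3), or 51.8% of the vector level (log2 fold change -0.95, standard error 0.057, adjusted p = 2.93e-14, edgeR). Its libraries ran from 175 to 199 CPM in vector and from 92.3 to 100.4 CPM in shMETTL3. S100PBP, its nuclear binding partner, was lower by -0.19 on the log2 scale (adjusted p = 0.0182, edgeR), which was at -0.012 and not called with scaling by library size alone. The call was also lost without vector replicate 1, at -0.17, without shMETTL3 replicate 1, at -0.18, or without shMETTL3 replicate 2, at -0.16. Exons of S100PBP overlap those of YARS1 on the opposite strand.

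ANXA1, an anti-inflammatory annexin that acts through formyl peptide receptors and is a substrate of growth factor receptor kinases, was the most abundant annexin per kb in the vector libraries. In the shMETTL3 libraries its level per kb of canonical transcript and that of ANXA2 differed by less than their spread. ANXA1 had 66174, 54520 and 50061 counts in vector replicates 1, 2 and 3 and 23632, 23636 and 18727 counts in shMETTL3 replicates 1, 2 and 3. The lowest vector library, at 3064 CPM after scaling, lay well above the highest shMETTL3 library, at 1222 CPM. ANXA1 fell from 3335 ± 316 to 1192 ± 25.7 CPM, or 35.8% (log2 fold change -1.48, standard error 0.058, adjusted p = 2.64e-18, edgeR).

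ANXA13, the annexin of intestinal and kidney epithelia and the one with a myristoylated form, had the lowest log2 fold change among annexins. Its counts were 1887, 1737 and 1565 in vector replicates 1, 2 and 3 and 420, 459 and 352 in shMETTL3 replicates 1, 2 and 3, without overlap. The level fell to 21.9% (log2 fold change -2.19, standard error 0.063, adjusted p = 2.43e-21, edgeR). ANXA10, an atypical annexin of gastric epithelium that has lost most calcium-binding sites, had 182, 153 and 137 counts in vector and 78, 81 and 58 counts in shMETTL3 libraries. It was lower at 42.4% of the vector level (log2 fold change -1.24, standard error 0.14, adjusted p = 7.49e-09, edgeR). ANXA3 was lower at 63.9%, from 69.6 ± 2.64 to 44.5 ± 2.21 CPM.

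Other annexins have general roles at membranes. ANXA5, the protein used as a probe for exposed phosphatidylserine, had 6873, 6287 and 6188 counts in vector and 6051, 6340 and 5358 counts in shMETTL3 libraries. Its scaled levels did not overlap, and ANXA5 was lower by -0.24 on the log2 scale (standard error 0.049, adjusted p = 0.000137, edgeR), but -0.062 and not called with scaling by library size alone. ANXA7 and ANXA11, which have long amino-terminal tails and bind the penta-EF-hand proteins SRI and PDCD6, were lower by -0.34 and -0.35 on the log2 scale. ANXA4, which stabilises injured membranes, stood at 434 ± 19.6 and 426 ± 3.32 CPM and was not called (log2 fold change -0.027, standard error 0.050, adjusted p = 0.641, edgeR). It was called higher with scaling by library size alone, at 0.15, and lower with the GC and length offsets, at -0.17. ANXA9 was not called at 3.64 ± 0.206 and 3.75 ± 0.581 CPM. ANXA6, the annexin with an extended core and a part in cholesterol transport, was higher, from 24.4 ± 2.05 to 36.2 ± 0.570 CPM (log2 fold change 0.57, standard error 0.072, adjusted p = 8.94e-08, edgeR), and its groups did not overlap. ANXA8, at 2, 10 and 4 counts in vector and 3, 5 and 5 counts in shMETTL3 libraries, was not tested, and it shares near-identical sequence with ANXA8L1, so that counts of these genes are uncertain.

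On chromosome 1 of GRCh37 the S100A genes span 151955391 to 153604515. S100A10 and S100A11 stand apart at one end, 1310 kb from the rest, with the epidermal differentiation complex between them. Along the rest, neighbouring genes went different ways. S100A9 and S100A8 were higher, S100A6 lower, S100A4 and S100A3 higher, and S100A16 and S100A14 lower. S100A5 between S100A6 and S100A4, S100A2 between S100A3 and S100A16, and S100A13 beyond S100A14 were not called. Of 50 tested protein-coding genes within 1 Mb of the cluster or inside it, 10 were higher and 24 lower, with a median log2 fold change of -0.11, against 33.7% and 32.9% of all tested genes. With scaling by library size alone 17 were higher and 16 lower, with a median of 0.060. The epidermal differentiation genes, which include the fused-type S100 genes such as filaggrin and trichohyalin, were almost silent. Of 42 listed, 30 had 0 counts in all libraries and only TCHH, trichohyalin, was tested, with 12, 15 and 10 counts in vector and 8, 6 and 6 in shMETTL3 libraries. TCHH passed the filter only through the vector libraries, where it was high, so its test is not given, but it is among the 24 lower genes above. NPR1, among the 10 higher, had 6, 5 and 12 counts in vector and 63, 89 and 65 in shMETTL3 libraries. It passed the filter only through the shMETTL3 libraries. These 2 calls are not independent of the filter.

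**Figure D4:**
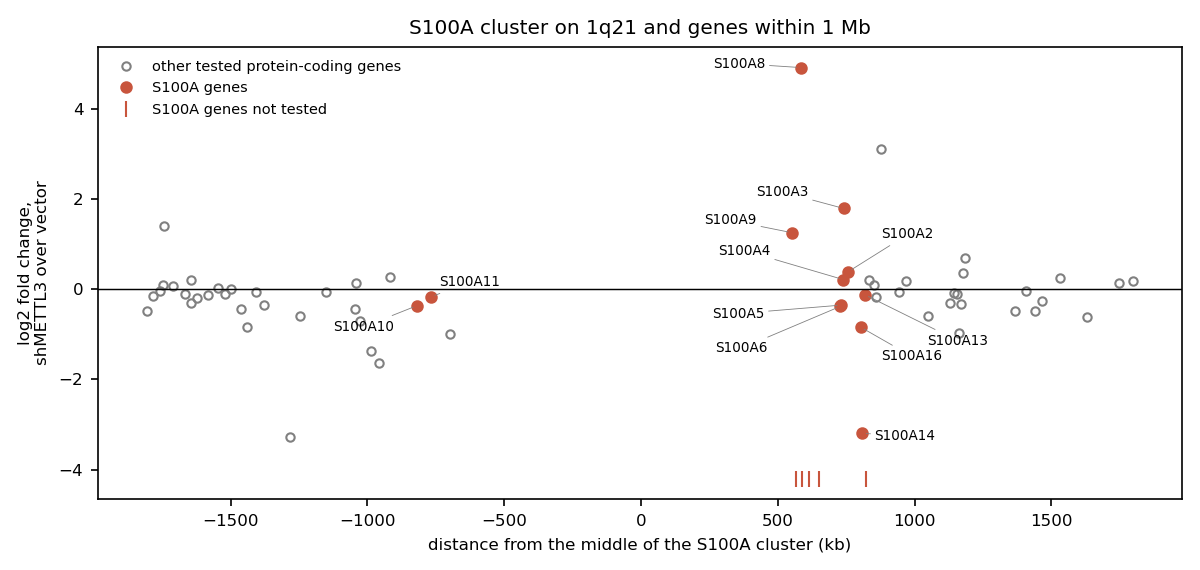
Log2 fold change of shMETTL3 over vector (vertical axis) against the distance in kb from the middle of the S100A cluster, for 12 tested S100A genes (filled) and 50 other tested protein-coding genes within 1 Mb (open circles); ticks at the bottom mark 5 S100A genes that were not tested. S100A14 lies at -3.20 and the fitted point of S100A8 at 4.91, while the open circles have a median of -0.11.

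Genes known to work with S100 proteins and annexins moved in both directions. The shares over all tested genes, to be set beside each list, were 66.6% called, 33.7% higher and 32.9% lower. In the plasminogen system, which the S100A10 and ANXA2 complex serves, 5 of 9 tested genes were higher and 3 lower. Among those higher were PLAT, the tissue activator of plasminogen (log2 fold change 2.01), and SERPINE2, a protease inhibitor (1.42). Of the receptors and surface partners, 5 were tested. TLR4, a receptor of calprotectin, was higher at 1.19, TLR2 was at least 5.47-fold higher with 1, 0 and 0 counts in vector and 19, 22 and 13 in shMETTL3 libraries, and BSG, a receptor of S100A9, was lower at -0.45. Of the intracellular partners, 4 of 20 were higher and 13 lower, among them TRPV6 (-3.33), a calcium channel that the S100A10 and ANXA2 complex carries to the membrane, SRI (-1.62), sorcin, and TPM2 (1.45), a tropomyosin. With scaling by library size alone 5 of these 20 were higher and 7 lower. TLR2 passed the filter only through the shMETTL3 libraries and TRPV6 only through the vector libraries, the groups where they were high. TRPV6 is counted among the 13 lower, and its call is not independent of the filter.

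In the list for membrane repair and the ESCRT-III machinery, 6 of 15 tested genes were higher and 5 lower, but 9 higher and 2 lower with scaling by library size alone. The called genes with the largest changes were DYSF, dysferlin (1.72), CAVIN1, a caveolar coat protein (0.71), and CHMP2A, an ESCRT-III subunit (-0.57). Among other EF-hand proteins, 13 of 25 were higher and 7 lower, with the largest changes in CALB2, calretinin (4.10, from 5, 3 and 2 counts in vector to 56, 85 and 52 in shMETTL3 libraries), EFHD1, a mitochondrial EF-hand protein (1.99), and RCN3, a reticulocalbin of the endoplasmic reticulum (1.70). DYSF and CALB2 passed the filter only through the shMETTL3 libraries, where they were high. Both are counted among the higher genes of their lists, and these calls are not independent of the filter. The vector counts of CALB2 lay at or near the floor of 3 counts, so its fitted value is no measure of size. Medians were 0.85, 0.10, -0.16, 0.068 and 0.14 for the plasminogen, receptor, intracellular, membrane and EF-hand lists, beside 0.0022 for all tested genes. The intracellular median turned to 0.013 without TMM factors, and the receptor, membrane and EF-hand medians to -0.036, -0.022 and -0.018 with the GC and length offsets. No set test was run.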

How the data were processed

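RNA-seq counts of 6 A549 libraries, 3 vector and 3 shMETTL3, were used, grouped by sample title. The authors mapped reads to hg19 with HISAT2 and counted them per gene with HTSeq, and deposited raw counts without normalization. The submitters' processing notes name cutadapt 3.0, HISAT2 2.2.1, SAMtools 1.13 and HTSeq 0.13.5, while the paper's methods give other versions of HISAT2 and HTSeq. The annotation and the strand setting are not given in the sources used here. Counts were filtered with filterByExpr, then scaled by TMM and tested with the quasi-likelihood test of edgeR 4.0.16 in R 4.3.3. The Benjamini-Hochberg adjustment was over 15125 genes, at a threshold of 0.05. METTL3 was also compared by an exact permutation test of log2(CPM + 0.1). Each standard error is the fitted coefficient over the root of its F value. The fit was tested on simulated data.

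The members and gene lists were chosen with earlier results of these data known. All members are named. Counts per library are given for called members with an absolute log2 fold change of at least 1 and for S100A10, ANXA2, S100A4, S100A6, S100A11, ANXA1 and ANXA5, and the 3 called genes with the largest change are named from each list of partners, except for 1 gene that is not reported here. S100A7, S100A1, ANXA8 and the genes beside the cluster were described after their values were seen. Gene positions, exons and transcript lengths came from GENCODE 44 mapped to GRCh37, in which 38489 rows matched by symbol and 842 by an older symbol of RefSeq. Levels per kb used the canonical transcript. Alternatives were RLE, upper-quartile and library-size scaling, DESeq2 1.42.0, limma-voom (limma 3.58.1), omission of the filter, a minimum of 10 counts per library throughout, a replicate block, offsets for GC content and length by loess with a span of 0.3, each library left out, and stricter thresholds. Library totals of 14931426 to 19108928 counts put 3 counts at 0.149 to 0.189 CPM.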

Additional observations from a re-analysis of the deposited data

How the results depend on the processing

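The count of changed S100 and annexin genes stayed between 18 and 21 under all alternatives but one, against 20 of 25 as reported. A minimum absolute log2 fold change of 1 gave 7, of which 4 were S100A genes on 1q21, 0 S100 genes elsewhere and 3 annexins, and 2668 among all genes, against 10067, because it removes small changes. Leaving out 1 library gave 18 to 20 changed members, 8 to 9 S100A genes, 9 annexins and 9410 to 10072 genes in all. Without TMM factors the overall median rose by 0.17, with 6745 genes higher and 3512 lower, against 5090 and 4977. ANXA4 was then at 0.15 and called, S100A11 at 0.0057 and S100A13 at 0.049, each with the opposite sign, while S100A2 was called at 0.56 and S100PBP, at -0.012, was not. Under the GC and length offsets 4128 genes were higher and 5594 lower, and S100A13 was at 0.054. S100A11, at -0.020, was not called there, while ANXA4, at -0.17, and S100A2, at 0.43, were called. ANXA9, not called in any fit, ran from -0.021, without shMETTL3 replicate 2, to 0.16 with 1 library left out. S100A14, S100A3, S100A9, ANXA1, ANXA10 and ANXA13 kept their direction and call in all 17 alternatives. S100PBP was not called under DESeq2. The cause was not tested.

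Deviations of same-numbered libraries correlated only weakly, at 0.051, -0.0058 and 0.033, none above 0.1. These values cannot show whether the libraries were paired by design. Replicates 1 and 3 of both groups correlated best with their own number and replicate 2 of neither group did. The replicate block gave 10111 changed genes and 20 changed members.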

Other observations

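Relatives outside the symbol rule were mostly lower or uncalled. ANXA2R, a proposed receptor of ANXA2, had 74, 79 and 62 counts in vector and 42, 38 and 22 counts in shMETTL3 libraries (log2 fold change -1.19, adjusted p = 7.61e-06, edgeR), and ANXA2P2 was at -0.69 (adjusted p = 1.1e-10, edgeR), beside -0.55 for ANXA2. ANXA8L1 was not called, at -0.11, and ANXA8L2 had -0.53 (adjusted p = 0.263, edgeR). S100Z, S100A7L2 and ANXA2P3 had 0 counts in all libraries.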
